A study of Mus musculus with 22 samples.

Results

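Ythdc1 is a nuclear protein that binds N6-methyladenosine (m6A), the most common internal modification of messenger RNA, and Dux is the transcription factor that switches on genes of the cleaving mouse embryo. The libraries described here are 4 of the 22 in the series: the RNA-seq libraries titled Dux-Het from Ythdc1 conditional knockout (cKO) mouse embryonic stem cells (ESCs), 2 given 4-hydroxytamoxifen (4OHT) and 2 given the solvent DMSO. They were chosen by their titles and matching column names, because in the Dux libraries the genotype and treatment fields of the labels run 1 sample out of step with the titles. By title all 4 are Ythdc1 cKO and Dux-Het, a genotype that the labels write as Dux+/-. The treatment is the only difference between the groups that the titles give. 4OHT is the ligand commonly used to switch on an inducible Cre recombinase. No source used here names the recombinase and its promoter, the dose and length of treatment, or whether the Dux-Het cells are 1 clone.

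The ESCs were male, came from the inner cell mass of 129 mice and grew without feeder cells in serum and LIF. The design places the same treatment beside 3 other backgrounds: 2 against 2 libraries of Ythdc1 cKO cells titled Dux-KO (Dux-/-), 1 against 1 with no Dux label, and 4 against 4 of a separate main set of Ythdc1 cKO cells. Titles of the main set name the lines ESC#1 and ESC#2, but its count columns name no line. Its SDs and p-values, and the comparison with Dux-Het, therefore leave the line out. The labels do not tie a replicate to its own culture. The p-values below therefore cover only how much these libraries vary, which may be technical. In bulk RNA a change in the number of cells of a type and a change in RNA per cell cannot be told apart.

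As background, m6A is written on nascent RNA by the Mettl3 complex and read in the nucleus by Ythdc1, which is known for roles in splicing, export and the silencing of retroelements on chromatin. Mouse ESC cultures hold a small fraction of cells that resemble the embryo just after the first cleavage and express Dux, the Zscan4 cluster and the endogenous retrovirus MERVL. Dux binds the long terminal repeats of MERVL, named MT2_Mm, and the promoters of its target genes, and in that way ties the retrovirus and these genes together.

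Total counts, in units of 1e6, were 43.44 and 44.77 in the Dux-Het DMSO libraries and 43.02 and 52.21 under 4OHT. Repeat families took 18.48% and 20.95% of counts under DMSO and 24.36% and 25.02% under 4OHT. Of the marker sets for other cell types, summed levels in CPM (counts scaled to a common library total) were 67.2 and 19.6 under DMSO and 39.2 and 30.1 under 4OHT for feeder fibroblasts, and 10.1, 6.23, 7.68 and 6.34 in the same order for trophectoderm. Summed mesoderm markers went from 10.4 and 6.90 to 3.15 and 3.05, neural markers from 66.7 and 64.6 to 54.9 and 44.1, and primitive endoderm markers from 17.4 and 16.2 to 22.9 and 24.1. No marker of any set was at 0 in all 4 libraries, and summed ESC markers stood at 1715, 1790, 1067 and 1449 CPM. The part of other cell types in the results below was not tested.

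The level of the targeted gene did not separate the treatments. Ythdc1 (chr5:86804221-86836659, plus strand, GRCm38) stood at 58.9 and 86.5 CPM in the DMSO libraries and at 52.2 and 65.9 CPM in the libraries titled 4OHT. The groups overlapped, with the second 4OHT library above the first DMSO library. The log2 fold change was -0.28 (SE 0.217) with an adjusted p of 0.456. This and all following adjusted p-values come from edgeR's quasi-likelihood test with Benjamini-Hochberg adjustment over every entry tested, with 0.05 as the threshold. Without DMSO replicate 2 the value was 0.030 (adjusted p = 0.955). The deposited count covers the whole gene and no source used here says which exons the treatment removes, so this count does not check the deletion. In the main set the mean went from 75.7 ± 4.19 to 56.2 ± 6.83 CPM (SD, n = 4), a log2 fold change of -0.41 (adjusted p = 0.00064). Mettl3, which carries the methyltransferase activity that makes m6A, was at 31.3 and 36.7 CPM under DMSO and 35.5 and 35.9 CPM under 4OHT (0.09, adjusted p = 0.758).

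Of 29322 entries tested, 1464 were higher (4.99%) and 1274 lower (4.34%) in the libraries titled 4OHT. Among those called, 1082 of the higher and 481 of the lower entries changed at least 2-fold. The median log2 fold change over all entries tested was 0.04. Of 16874 protein-coding genes 1057 were higher and 1108 lower, whereas long intergenic RNAs were called higher 99 times and lower 22 times of 1456 and antisense genes higher 83 times and lower 29 times of 2000. No source used here says whether counting used strand, so reads of an antisense gene and its partner may be mixed. Among 8162 entries with a mean under 0.5 CPM in DMSO, 392 were called higher and 8 lower. Entries this low in DMSO have little room to fall and may pass the count filter only through a higher group. This split is thus in part set in advance and says little about direction. With 2 libraries a group the totals rest on each library: without DMSO replicate 1 they were 959 and 626, without 4OHT replicate 1 the lower count was 739, and without 4OHT replicate 2 they were 824 and 430. 505 of the higher and 277 of the lower entries kept their call in each of the 4 fits that left out 1 Dux-Het library.

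**Figure D1:**
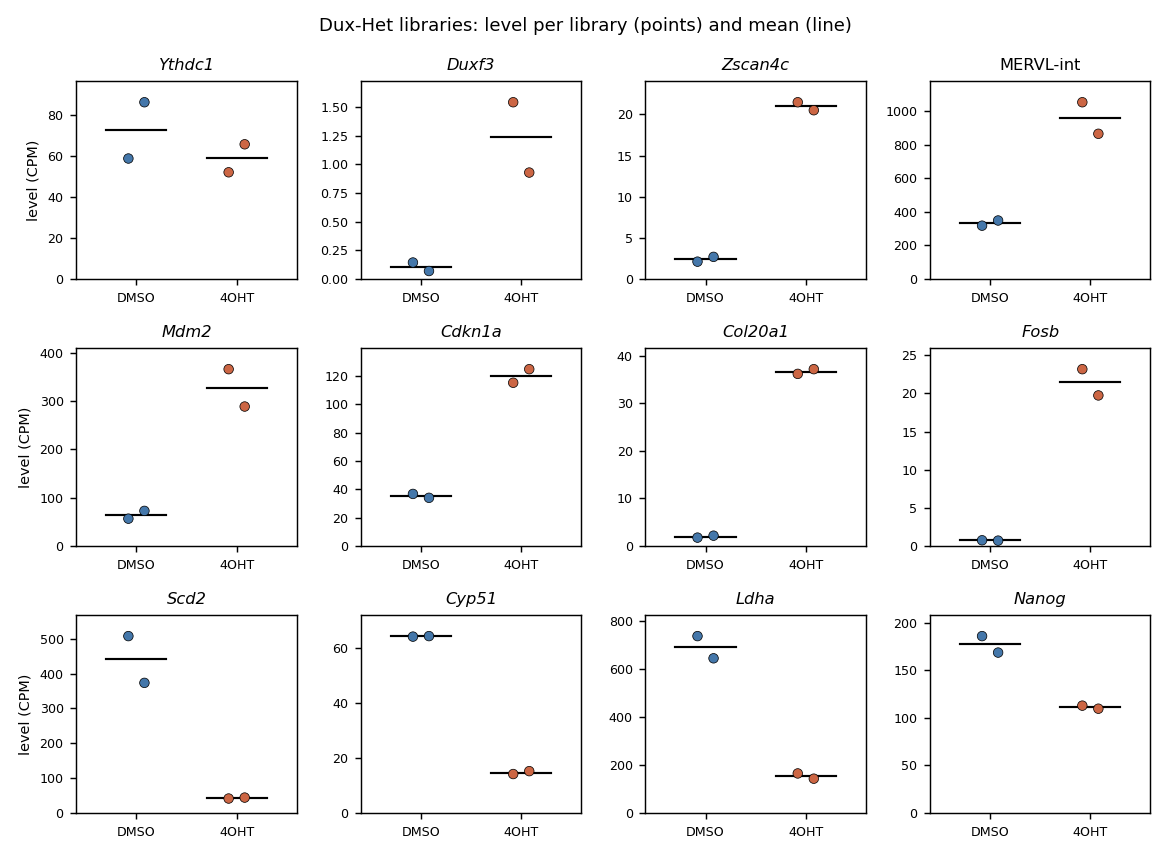
Level in CPM of 12 genes or repeat families in the 4 Dux-Het libraries, each panel from 0 on its own scale, with a point per library and a line at the group mean. Ythdc1 overlaps between treatments, while the points of the other 11 panels separate by treatment: Scd2, Cyp51, Ldha and Nanog are lower and the other 7 higher in the libraries titled 4OHT.

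Genes of the cleaving embryo, most of them known targets of Dux, rose together. Of 47 tested members of a list of 52 such genes, 32 rose and 0 fell, with a median log2 fold change of 3.01 against 0.04 over all entries, and 27 of the 32 kept their call whichever Dux-Het library was left out. In all 32 both 4OHT libraries lay above both DMSO libraries. These genes were called on the same libraries, so the separation follows largely from the call and adds no support. Dux itself, present in the table as Duxf3 (chr10:58229979-58232675, minus strand), was at 0.144 and 0.0695 CPM under DMSO and 1.54 and 0.927 CPM under 4OHT, which rests on 9 and 116 counts. The fitted log2 fold change was 3.52 (SE 0.637, adjusted p = 0.00713). Duxf3 belongs to an array of near-identical copies, so its reads may be shared among them.

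A short sequence known to be bound by Dux, searched here as GATTNNATC on both strands, stands upstream of several of these genes. The RefSeq promoter table (GRCm38.p6, from 250 bases before to 50 after a transcript start) held windows for 24 of the 52 listed genes. The sequence was in 9 of their 25 windows (36%), against 518 of 32851 windows of all genes (1.58%). Most listed genes are known Dux targets, so this share follows in part from how the list was made. The 9 windows are not independent: Zscan4b, Zscan4c, Zscan4d and Zscan4f are near copies there, as are AF067061 and Gm21761. Gm4340, which also holds the match, did not pass edgeR's test (adjusted p = 0.165). The stretches below are shown because they carry that match in genes that rose; each runs 5′ to 3′ on the gene's strand, ends before the transcript start and has the match in capitals.
Zscan4c: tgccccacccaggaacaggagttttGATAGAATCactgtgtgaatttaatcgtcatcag
Zscan4d: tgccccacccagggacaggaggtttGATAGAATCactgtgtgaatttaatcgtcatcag
Zscan4f: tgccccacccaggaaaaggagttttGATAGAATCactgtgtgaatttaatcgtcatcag
Sp110: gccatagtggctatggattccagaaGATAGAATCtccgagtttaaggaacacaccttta
AF067061: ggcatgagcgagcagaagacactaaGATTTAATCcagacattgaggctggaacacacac
Duxf3: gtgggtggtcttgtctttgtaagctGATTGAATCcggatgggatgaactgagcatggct
They lie at chr7:11005607-11005665 (plus strand), chr7:11166239-11166297 (minus), chr7:11397800-11397858 (plus), chr1:85604054-85604112 (minus), chr13:120262945-120263003 (plus) and chr10:58233195-58233253 (minus), in that order. The 3 Zscan4 stretches are near copies of each other, whereas those of Sp110 and AF067061 share little with them beyond the match. Over all tested genes with a window, 29 of 194 with the sequence were called higher (14.9%) and 10 lower (5.15%), against 894 (6.14%) and 838 (5.75%) of 14563 with any window. The 194 include the listed genes above, so this share is not separate from theirs. A match describes letters and was not tested as a binding site.

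The Zscan4 genes, which encode zinc finger proteins of a tandem cluster on chromosome 7, were expressed at a low level under DMSO and rose in each of the 9 copies tested. Zscan4c (chr7:11005745-11010547) went from 2.11 and 2.69 CPM to 21.5 and 20.5 CPM, an 8.85-fold rise (log2 3.15, SE 0.244, adjusted p = 0.000195). Zscan4d went from 1.84 and 1.99 to 16.9 and 13.6 CPM (8.06-fold, adjusted p = 0.000328). Zscan4f went from 1.91 and 1.95 to 11.2 and 10.2 CPM (5.61-fold, adjusted p = 0.000862). The 4OHT values thus lie well clear of the DMSO values in each, but the copies are alike enough that the split of reads among them is uncertain.

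Other genes of the list rose with them. Tmem92, a small membrane protein gene, was at 0.598 and 0.440 CPM under DMSO and at 9.42 and 4.25 CPM under 4OHT (13.3-fold, adjusted p = 0.00146). AF067061, a two-cell gene with close copies, went from 0.191 and 0.278 to 4.69 and 2.28 CPM (14.8-fold, adjusted p = 0.00319). Sp110, a nuclear body gene, went from 1.27 and 0.602 to 5.32 and 3.40 CPM (4.72-fold, adjusted p = 0.00543). Usp17le, a deubiquitinase gene of a family of close copies, went from 0.766 and 0.649 to 6.11 and 3.48 CPM (6.85-fold, adjusted p = 0.00423). In Tmem92, AF067061, Sp110 and Usp17le the first 4OHT library was higher than the second. These 4 genes were picked from the list after their values were seen.

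Dppa2, Dppa4 and Nelfa, listed as known regulators, did not pass the test. Dppa2, an activator of Dux, was at 26.2 and 38.0 CPM under DMSO and 37.5 and 43.1 CPM under 4OHT (log2 0.34, adjusted p = 0.34). Its partner Dppa4 was at 60.1 and 83.6 against 85.0 and 90.5 CPM (0.31, adjusted p = 0.291). Nelfa, a subunit of the negative elongation factor, had overlapping groups and a log2 value of -0.10 (adjusted p = 0.74). Zfp352 rose on few counts, from 3 to 70 over each pair of libraries (pooled ratio 20.7, 95% interval 6.79 to 103, adjusted p = 0.0182), and its call was lost without DMSO replicate 1, DMSO replicate 2 or 4OHT replicate 1 (adjusted p = 0.0579, 0.0707 and 0.0739). Intervals on counts cover counting error only.

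Repeat families leaned higher but few passed. Of 1047 tested, 973 had a positive and 74 a negative log2 fold change, 20 rose and 0 fell (median 0.30). The share called higher, 1.91%, was below the 4.99% over all entries. MERVL-int, the internal part of the retrovirus that Dux activates, was at 317 and 348 CPM under DMSO and 1052 and 864 CPM under 4OHT, a 2.92-fold rise (log2 1.54, SE 0.161, adjusted p = 0.000328). Its long terminal repeat MT2_Mm was at 149 and 170 against 291 and 274 CPM (1.79-fold, adjusted p = 0.00623). Both families separate cleanly by treatment, which follows largely from their call on these same libraries. Of the 41 families on a list of retroelements, 6 rose, among them MMERVK10C-int, from 166 and 188 to 280 and 301 CPM (1.67-fold, adjusted p = 0.0111), whose call was lost without DMSO replicate 1 (adjusted p = 0.0645) or 4OHT replicate 2 (0.0733). MuRRS-int, from 16.6 and 19.07 to 29.1 and 29.9 CPM (1.68-fold, adjusted p = 0.0141), lost its call in the same 2 fits (0.0796 and 0.0734). Only MERVL-int and MT2_Mm of the 6 kept their call whichever Dux-Het library was left out.

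Off that list, IAP1-MM_I-int of the intracisternal A-particle group rose from 10.1 and 14.8 to 22.1 and 29.4 CPM (2.10-fold, adjusted p = 0.0188; 0.0952 without DMSO replicate 1 and 0.117 without 4OHT replicate 2). MMERVK9C_I-int rose from 76.9 and 114 to 147 and 194 CPM (1.81-fold, adjusted p = 0.0377; 0.179 and 0.208 in those fits). Young LINE families did not pass: L1Md_T was at 1401 and 2193 CPM under DMSO and 1689 and 2164 CPM under 4OHT (log2 0.12, adjusted p = 0.765). Its groups interleave, with both second replicates above both first ones. Major satellite GSAT_MM ran from 7.16 and 61.6 to 49.7 and 81.9 CPM (adjusted p = 0.401), with the DMSO libraries far apart.

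Targets of p53, the transcription factor that answers DNA damage and other stress, rose broadly. Of 34 tested, 26 rose and 0 fell (median 1.10), and 20 kept their call in each fit that left out 1 Dux-Het library. Mdm2, the ubiquitin ligase that degrades p53, was at 56.5 and 72.6 CPM under DMSO and 366 and 289 CPM under 4OHT (5.14-fold, log2 2.36, SE 0.181, adjusted p = 4.78e-05). Cdkn1a, which encodes the cyclin-dependent kinase inhibitor p21, went from 36.8 and 34.0 to 115 and 125 CPM (3.44-fold, adjusted p = 7.12e-05). The 2 groups lie far apart relative to their spread in both genes, which restates their small p-values and adds no support.

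The p53 target with the smallest p was Ptprv, a phosphatase gene annotated as a processed transcript, from 9.88 and 6.998 to 65.5 and 83.3 CPM (8.93-fold, adjusted p = 2.41e-05). Cd80, a T cell costimulatory ligand, went from 2.92 and 2.73 to 32.3 and 26.5 CPM (10.5-fold, adjusted p = 3.08e-05). Plk2, a polo-like kinase, went from 20.2 and 24.9 to 103 and 124 CPM (5.10-fold, adjusted p = 4.13e-05). Of genes of cell death on the list, Fas, Bax and Bbc3 are given as examples. The list was not sorted by role, so they do not show how its genes of cell death went as a group. Fas, a death receptor picked after its values were seen, rose from 0.144 and 0.209 to 1.93 and 1.80 CPM (10.5-fold, adjusted p = 0.000862). Among those that did not pass, Bax, a pore-forming protein of mitochondria, was at 68.6 and 68.3 against 76.3 and 92.2 CPM (log2 0.32, adjusted p = 0.222), and Bbc3, which encodes PUMA, at 14.8 and 13.0 against 18.8 and 20.02 CPM (0.50, adjusted p = 0.12).

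The largest rises by the rule used to name genes were mostly of genes nearly silent under DMSO. Gm16429, Gm11543 and AA623943 had 1, 2 and 3 counts over the DMSO pair and 110, 116 and 148 over the 4OHT pair, for pooled ratios of 97.4 (95% interval 17.1 to 3882), 51.4 (13.9 to 429) and 43.7 (14.7 to 214). The next were Dnah3, an axonemal dynein heavy chain, at 0.0718 and 0.0232 against 2.20 and 1.64 CPM (log2 5.28, SE 0.542, adjusted p = 0.000313), and Trim75, a tripartite motif gene, at 0.0718 and 0.0463 against 2.26 and 1.68 CPM (5.02, adjusted p = 0.000687). Gm38642 and Gm38153 followed at 4.97 each. Fosb, described with the immediate early genes below, came last of the 8. All 8 kept their call in every fit that left out 1 Dux-Het library, and several are predicted genes whose copies make read assignment uncertain.

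By p rather than by size the strongest rise was in Col20a1, a collagen chain gene named after its value was seen. It was at 1.75 and 2.15 CPM under DMSO and 36.2 and 37.2 CPM under 4OHT (19.0-fold, log2 4.25, SE 0.21, adjusted p = 7.72e-06). Anxa8, an annexin, went from 1.10 and 0.788 to 27.5 and 20.8 CPM (25.9-fold), and Nfam1, an immune receptor adaptor gene, from 1.15 and 0.649 to 17.3 and 16.0 CPM (18.8-fold). Abcb1b, a multidrug exporter, went from 24.6 and 26.7 to 128 and 126 CPM (5.01-fold), and Serpine2, a secreted protease inhibitor, from 19.3 and 22.7 to 109.7 and 109.97 CPM (5.30-fold). These 4 were also named after the fact, with adjusted p-values of 2.41e-05 to 3.02e-05. In all 5 genes the replicates of a group lie close together beside the gap between groups. That follows largely from picking genes by p and adds no support.

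Cholesterol synthesis fell almost as a whole. Of 24 tested genes of the pathway and its controls, 0 rose and 23 fell, with a median log2 fold change of -1.59, and 21 of the 23 kept their call whichever Dux-Het library was left out. Cyp51, the lanosterol demethylase, went from 64.2 and 64.3 to 14.1 and 15.2 CPM, a 4.33-fold fall (adjusted p = 4.13e-05). Sqle, squalene epoxidase, went from 87.1 and 83.2 to 22.1 and 23.5 CPM (3.69-fold, adjusted p = 4.13e-05). In both the DMSO and 4OHT values do not come near each other, which follows largely from naming them by p.

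The control genes of the pathway fell with the enzymes. Insig1, which holds the sterol-sensing machinery in the endoplasmic reticulum, went from 93.0 and 73.0 to 20.7 and 20.5 CPM (3.97-fold, adjusted p = 7.04e-05). Srebf2, the transcription factor that drives the pathway and its own gene, went from 240 and 182 to 76.7 and 93.7 CPM (2.45-fold, adjusted p = 0.00141). Ebp, a sterol isomerase, was the 1 member that did not pass, at 9.36 and 10.5 against 8.38 and 9.20 CPM (log2 -0.16, adjusted p = 0.674).

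A sterol regulatory element, searched as TCACNCCAC on both strands, was in 1 of 19 windows of the 16 sterol genes with a promoter in the table (5.26%), against 408 of all 32851 windows (1.24%). That match is upstream of Hmgcs1, which encodes hydroxymethylglutaryl-CoA synthase and fell from 208 and 219 to 65.8 and 69.5 CPM (3.11-fold, adjusted p = 0.00014). The stretch lies at chr13:119690189-119690247 on the plus strand of GRCm38.p6 and is shown with the match in capitals.
Hmgcs1: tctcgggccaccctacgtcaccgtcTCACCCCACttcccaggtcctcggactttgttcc
Of 224 tested genes with this element in a window, 16 were called higher (7.14%) and 20 lower (8.93%), against 894 (6.14%) and 838 (5.75%) of 14563 genes with any window. The element was in 0 of 18 windows of the 13 fatty acid synthesis genes with a promoter in the table.

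The stearoyl-CoA desaturase genes Scd1 and Scd2 were among the largest falls. Of 16 tested genes of fatty acid synthesis, 0 rose and 9 fell (median log2 fold change -0.81). Scd2, a stearoyl-CoA desaturase (chr19:44293674-44306864), was at 508 and 373 CPM under DMSO and 41.2 and 43.9 CPM under 4OHT, a 10.2-fold fall (log2 -3.35, SE 0.171, adjusted p = 7.72e-06). Scd1, its neighbouring paralog, went from 103 and 62.1 to 7.31 and 4.17 CPM (14.2-fold, adjusted p = 5.15e-05). Mir5114, which lies within Scd2 on the same strand, fell 9.27-fold with it, and in these libraries its reads cannot be told apart from those of the host. Acsl3, an acyl-CoA synthetase, went from 55.1 and 55.8 to 13.1 and 14.7 CPM (3.94-fold, adjusted p = 4.78e-05), and Fasn, the fatty acid synthase, from 1163 and 731 to 366 and 271 CPM (2.93-fold, adjusted p = 0.00259). Fads1, a desaturase of polyunsaturated fatty acids picked after its values were seen, fell less, from 76.8 and 54.9 to 33.3 and 28.7 CPM (2.10-fold, adjusted p = 0.00447). Srebf1 was at 98.9 and 54.7 against 48.3 and 32.5 CPM and missed the threshold (log2 -0.90, adjusted p = 0.0532).

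Most genes of glycolysis and the hypoxia response fell. Of 27 tested, 0 rose and 20 fell (median log2 fold change -0.97), and 11 of the 20 kept their call in each fit that left out 1 Dux-Het library. Without 4OHT replicate 2 the count was 13. Ldha, lactate dehydrogenase A (chr7:46841475-46855627), was at 738 and 645 CPM under DMSO and 165 and 143 CPM under 4OHT, a 4.44-fold fall (log2 -2.15, SE 0.161, adjusted p = 4.13e-05). Tpi1, triose phosphate isomerase, went from 450 and 383 to 131 and 125 CPM (3.21-fold, adjusted p = 9.03e-05). Bnip3, a mitophagy receptor, went from 54.5 and 50.1 to 17.1 and 14.7 CPM (3.25-fold, adjusted p = 0.000195), and Pgk1, phosphoglycerate kinase, from 551 and 468 to 194 and 179 CPM (log2 -1.43, adjusted p = 0.000262). Replicates were close to each other in all 4 genes, and the groups stood far apart, which follows largely from naming them by p.

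The core of the hypoxia response element, ACGTG on either strand, was in 21 of 38 windows of the list (55.3%, and 19 of 25 genes with a window). It was in 6447 of all 32851 windows (19.6%). The list holds known hypoxia-response genes, so this share follows in part from how the list was made. Car9, Ddit4, Hk1, Pfkm and Slc2a1 hold the core too but did not pass. Stretches of 3 genes that fell are shown with the matches in capitals, where a palindromic CACGTG is a match on both strands.
Ldha: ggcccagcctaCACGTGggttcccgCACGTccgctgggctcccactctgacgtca
Pgk1: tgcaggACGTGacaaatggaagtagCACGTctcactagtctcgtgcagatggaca
Bnip3: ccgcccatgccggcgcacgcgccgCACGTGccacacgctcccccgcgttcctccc
They lie at chr7:46845745-46845799 (plus strand), chrX:106186944-106186998 (plus) and chr7:138909584-138909638 (minus) of GRCm38.p6. Over all tested genes, 271 of 3885 with this common core were called lower (6.98%) and 205 higher (5.28%), near the 5.75% and 6.14% of all tested genes with a window. Further members of the list fell too: Ndufa4l2, a mitochondrial protein gene induced by hypoxia, went from 5.70 and 2.22 to 0.430 and 0.348 CPM (10.0-fold, adjusted p = 0.00202), and Egln3, a prolyl hydroxylase of the hypoxia-inducible factor, from 24.6 and 27.4 to 4.91 and 6.65 CPM (4.43-fold, adjusted p = 0.000293).

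Genes of serine synthesis, grouped here with targets of the integrated stress response, also fell, while the response's own factor did not pass. Of 20 tested, 8 fell and 1 rose. Phgdh, the first enzyme of serine synthesis, went from 114 and 97.5 to 32.8 and 32.1 CPM (3.21-fold, adjusted p = 0.000432). Psat1, the next enzyme, went from 232 and 247 to 94.2 and 69.6 CPM (2.89-fold, adjusted p = 0.000432), and Shmt2, the mitochondrial serine hydroxymethyltransferase, from 123 and 104 to 40.4 and 44.1 CPM (2.64-fold, adjusted p = 0.000799). Atf4, the transcription factor of the response, was at 77.6 and 84.8 against 89.0 and 81.6 CPM with overlapping groups (adjusted p = 0.748). Sesn2, which is on the p53 list too, was the member that rose, from 52.9 and 51.7 to 88.2 and 91.4 CPM (1.74-fold, adjusted p = 0.00603).

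Cell cycle and replication genes moved down by less. Of 26 tested, 0 rose and 18 fell (median log2 fold change -0.63), and 8 fell in the fit without 4OHT replicate 1 and 8 in the fit without 4OHT replicate 2. Ccne1, cyclin E1, went from 97.1 and 107 to 39.6 and 41.9 CPM (2.47-fold, adjusted p = 0.000446), and Tk1, thymidine kinase, from 51.9 and 37.5 to 17.98 and 12.7 CPM (2.87-fold, adjusted p = 0.00199). Pcna, the sliding clamp of replication, went from 147 and 165 to 83.9 and 91.3 CPM (1.76-fold, adjusted p = 0.00477). Ccne1, Tk1 and Pcna kept their call whichever Dux-Het library was left out, which most of the 18 did not. Mki67, a marker of cycling cells, was at 301 and 389 against 304 and 338 CPM, with overlapping groups (log2 -0.09, adjusted p = 0.81). Of 30 ribosome biogenesis genes 7 fell and 0 rose, and none of the 7 kept its call in all 4 leave-one-out fits.

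Among 42 genes of heterochromatin and retroelement silencing 10 fell and 1 rose, a list that shares Lin28a, Dnmt3b and Ncl with others described here. Over all entries tested 4.34% were called lower and 4.99% higher. Most of the 10 falls, among them Cbx1, Cbx3, Hdac1 and Trim28, lost their call in at least 1 leave-one-out fit. The falls named next kept it. Ehmt2, the H3K9 methyltransferase G9a, went from 109 and 110 to 43.5 and 52.0 CPM (2.26-fold, adjusted p = 0.00214). Uhrf1, which brings DNA methylation to replicated DNA, went from 265 and 258 to 143 and 142 CPM (1.81-fold, adjusted p = 0.00343), and Chaf1b, a histone chaperone subunit whose loss is known to raise MERVL, from 57.3 and 48.8 to 26.2 and 28.8 CPM (1.90-fold, adjusted p = 0.00616). Setdb1, the methyltransferase that silences endogenous retroviruses, was at 108 and 122 against 102 and 112 CPM with overlapping groups (adjusted p = 0.728). Dnmt3l, a cofactor of DNA methylation, was the 1 that rose, from 101 and 94.1 to 137 and 135 CPM (1.41-fold, adjusted p = 0.0375), a call lost in each of the 4 leave-one-out fits (adjusted p = 0.0907 to 0.137).

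Of 22 m6A writers, readers and erasers 0 rose and 2 fell, a count too small to set apart from the 4.34% called lower over all entries. Igf2bp3, a cytoplasmic m6A reader, went from 107 and 133 to 62.7 and 61.3 CPM (1.91-fold, adjusted p = 0.00376). Its paralog Igf2bp2 went from 84.5 and 67.5 to 43.3 and 31.2 CPM (2.01-fold, adjusted p = 0.00883; 0.0625 without 4OHT replicate 2). Of 22 genes of the nuclear exosome and its adaptors edgeR called 0, with 6 at an unadjusted p under 0.05 and 3 called lower by DESeq2.

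The pluripotency network was only partly lower. Of 28 tested, 6 fell and 0 rose, with a median log2 fold change of -0.08. Lin28a, an RNA-binding protein that blocks let-7 maturation, went from 203 and 294 to 117 and 113 CPM (2.14-fold, adjusted p = 0.00622). Fgf4, the ligand by which ESCs drive their own ERK signalling, went from 95.4 and 83.3 to 50.2 and 40.5 CPM (1.94-fold, adjusted p = 0.00374), and Tcl1, an AKT coactivator, from 24.4 and 20.9 to 9.26 and 12.1 CPM (2.09-fold, adjusted p = 0.00541). These 3 kept their call in every leave-one-out fit.

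Of the core factors, Nanog was at 186 and 169 CPM under DMSO and 113 and 109.7 CPM under 4OHT (1.57-fold, adjusted p = 0.0185). Its call was lost without DMSO replicate 1 (adjusted p = 0.0796), 4OHT replicate 1 (0.0686) or 4OHT replicate 2 (0.0958). Pou5f1 was at 394 and 442 against 245 and 309 CPM, groups that do not overlap but miss the threshold (log2 -0.57, adjusted p = 0.137). Sox2 was at 90.8 and 107 against 88.9 and 94.0 CPM, with overlapping groups (-0.10, adjusted p = 0.733). ESC markers were thus present in all 4 libraries.

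Nodal, a TGF-beta family ligand of the early epiblast, rose from 21.5 and 26.1 to 74.6 and 71.2 CPM (3.10-fold, adjusted p = 0.000328), while Fgf15 fell from 10.4 and 10.98 to 3.49 and 2.84 CPM (3.33-fold, adjusted p = 0.0019). With Etv4 higher and Dnmt3b lower, the formative and primed epiblast list had 2 rises and 2 falls of 21 tested; Etv4 (adjusted p = 0.00757) lost its call without 4OHT replicate 2 (0.0573), and Dnmt3b (0.025) without DMSO replicate 1 (0.0884) or 4OHT replicate 2 (0.0907). Of 15 primitive streak and mesoderm genes, Brachyury (T) fell from 6.99 and 5.49 to 0.544 and 1.22 CPM (6.92-fold, adjusted p = 0.00358) and Fgf8 from 2.06 and 0.880 to 0.181 and 0.193 CPM (7.62-fold, adjusted p = 0.00686). Wnt8a, a ligand of the same region of the embryo, rose from 0.742 and 1.34 to 7.52 and 6.86 CPM (6.95-fold, adjusted p = 0.000564). Genes of 1 list thus went opposite ways, with no overlap between groups in any of the 3, which were called on these same libraries. Over all entries tested 4.99% were called higher and 4.34% lower. The small counts of these 2 lists were not tested against those shares, and no lineage change is read from them.

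Of 14 neural genes, Neurod1, a proneural factor, rose from 1.197 and 3.24 to 15.0 and 14.6 CPM (6.72-fold, adjusted p = 0.0019), and Pax6 fell from 4.91 and 12.3 to 2.63 and 2.14 CPM (3.56-fold, adjusted p = 0.0135; 0.0654 without DMSO replicate 2 and 0.0768 without 4OHT replicate 2). Nes, the third called, was lower (adjusted p = 0.0298; 0.15 without DMSO replicate 1 and 0.154 without 4OHT replicate 2). In primitive endoderm 3 of 18 genes rose, Gata6, Pdgfra and Hnf4a, all at or under 7.29 CPM, and none kept its call in all 4 leave-one-out fits. Pdgfra was lost without DMSO replicate 1 (adjusted p = 0.058), Hnf4a without DMSO replicate 2 (0.0778) or 4OHT replicate 1 (0.104), and Gata6 in each fit (0.053 to 0.15). Of 16 trophectoderm genes 12 had a negative log2 fold change (median -0.78), and 1 passed: Tead4, a transcription factor of that lineage, fell from 14.5 and 13.7 to 5.41 and 8.64 CPM (1.98-fold, adjusted p = 0.0188; 0.0594 without DMSO replicate 1 and 0.101 without 4OHT replicate 1). Of 11 tested fibroblast genes edgeR called 0, with 1 at an unadjusted p under 0.05 and 1 called lower by DESeq2. Counts this small in the neural, primitive endoderm and trophectoderm lists were not tested against the 4.99% higher and 4.34% lower over all entries. No lineage change is read from them.

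Immediate early genes are transcription factor genes switched on within minutes by growth factor signals. Of 18 such genes and ERK targets 7 rose, 0 fell and 11 did not pass, and 4 of the 7, Fosb, Fos, Egr2 and Dusp4, kept their call whichever Dux-Het library was left out. Jun (adjusted p = 0.01) lost its call without 4OHT replicate 1 (0.0506), and Fosl1 (0.0101) without DMSO replicate 2 (0.0507) or 4OHT replicate 2 (0.0608). Egr1 (0.016) lost its call without DMSO replicate 2 (0.0693) or 4OHT replicate 1 (0.0869). Fosb (chr7:19302696-19310051), a subunit of the AP-1 factor, went from 0.742 and 0.695 to 23.2 and 19.7 CPM, a 30.2-fold rise (log2 4.92, SE 0.314, adjusted p = 2.41e-05). Fos (chr12:85473890-85477273) went from 3.37 and 1.53 to 18.8 and 16.3 CPM (7.27-fold, adjusted p = 0.000545), and Egr2 from 0.431 and 0.417 to 2.11 and 1.33 CPM (4.08-fold, adjusted p = 0.00883). Dusp4, a phosphatase that ERK signalling induces to limit itself, went from 42.1 and 37.4 to 71.8 and 68.6 CPM (1.79-fold, adjusted p = 0.00781). Junb, Ier2 and Myc did not pass (adjusted p = 0.653, 0.675 and 0.397). Neither did other feedback genes: Dusp6 was at 42.9 and 75.3 against 51.3 and 66.2 CPM and Spry4 at 67.8 and 132 against 81.2 and 144 CPM, with overlapping groups in both.

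The deepest falls beside the desaturases were of genes at low levels. Fli1, an ETS transcription factor, went from 1.125 and 1.39 to 0.0453 and 0.0386 CPM, from 107 counts to 4 (log2 -4.81, SE 0.645, adjusted p = 0.00157). The nominally largest fall, Dppa5b, a pseudogene of a pluripotency gene, rests on 1 library: it stood at 11.6 and 0.278 CPM under DMSO and 0.159 and 0.0966 CPM under 4OHT, and without DMSO replicate 1 its adjusted p rose from 0.0221 to 0.306. It was also lost without 4OHT replicate 1 (0.0761) or 4OHT replicate 2 (0.113). Olfr924 (adjusted p = 0.00994), Hapln1 (0.0276) and Lrtm2 (0.0207) fell as well, but without 4OHT replicate 2 their adjusted p-values were 0.064, 0.0965 and 0.0997. Olfr924 was also lost without DMSO replicate 2 (0.0788), Hapln1 without DMSO replicate 1 (0.138), and Lrtm2 without DMSO replicate 1 (0.112) or 4OHT replicate 1 (0.0694).

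**Figure D2:**
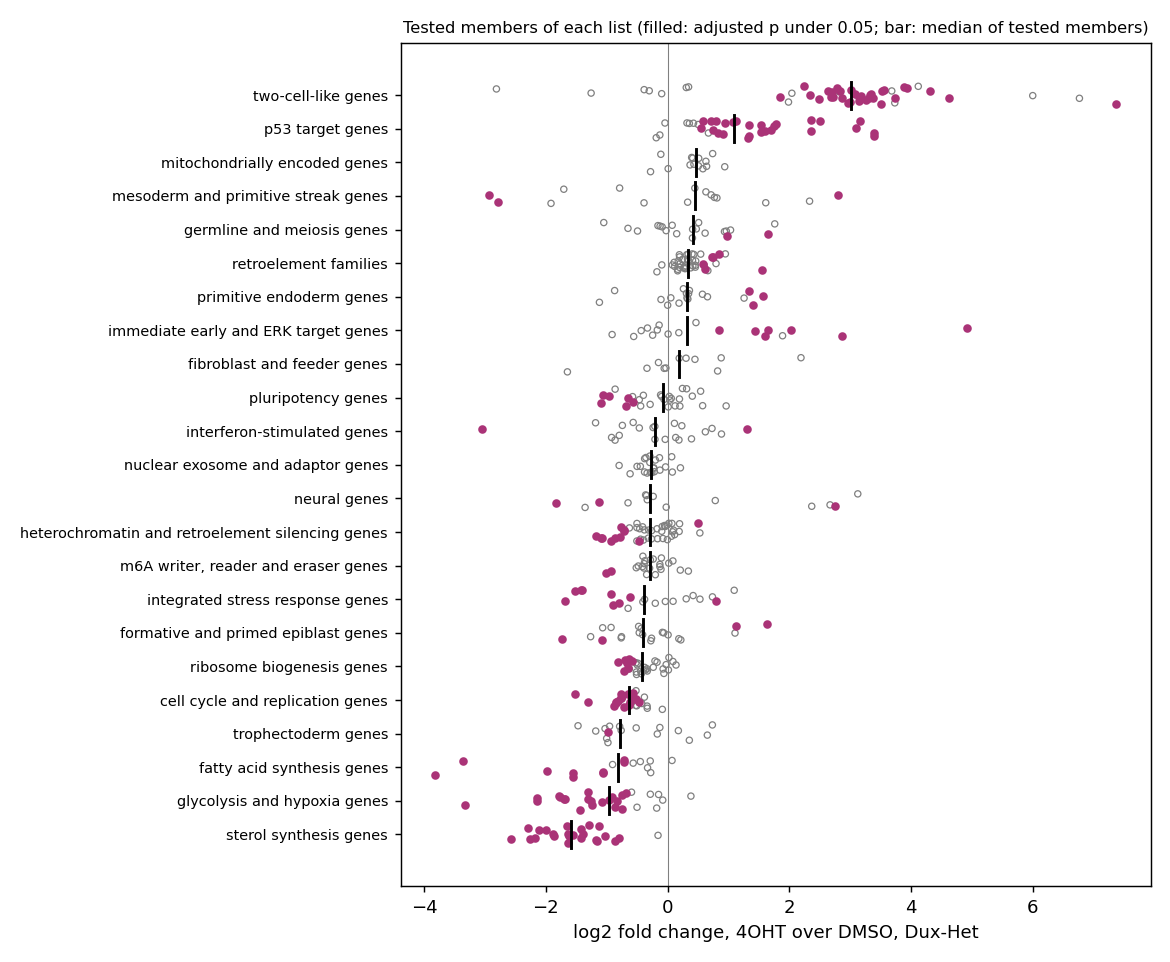
Log2 fold change (4OHT over DMSO, Dux-Het) on the horizontal axis for every tested member of the 23 lists, 1 point a gene or repeat family, filled where the adjusted p is under 0.05, with a bar at each list's median. The two-cell-like list has the highest median (3.01) and sterol synthesis the lowest (-1.59), and filled points of the p53, sterol and glycolysis lists lie on 1 side of 0.

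The Dux-KO cells, which received the same treatment, show which of these changes were also seen where Dux is absent. In Dux-KO 1612 of the same 29322 entries were higher (5.5%) and 1278 lower (4.36%). Of the Dux-Het calls, 974 of 1464 higher entries (66.5%, and 60.4% of those called in Dux-KO) and 898 of 1274 lower entries (70.5% and 70.3%) carried the same call in Dux-KO, with 0 opposite calls. The pairs share no library but 1 fitted spread. Entries called higher in Dux-Het, and so chosen on it, had a median log2 fold change of 1.48 in Dux-Het and 1.21 in Dux-KO, and those called lower -0.87 and -0.78. Across all 29322 entries the 2 log2 fold changes had a Pearson correlation of 0.61, a description over genes and not over replicates.

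The metabolic and p53 lists were called in the same direction in both genotypes. Of the sterol list 23 fell in each, of the glycolysis list 20 in each, and of the p53 list 26 rose in Dux-Het and 28 in Dux-KO. Scd2 was at 491 and 492 CPM under DMSO and 43.1 and 44.3 CPM under 4OHT in Dux-KO, and the difference of the effects was 0.10 on the log2 scale (SE 0.221). Mdm2 rose there from 59.1 and 64.7 to 425 and 374 CPM (difference -0.37, SE 0.244). Fosb rose there too, from 0.691 and 0.658 to 10.97 and 6.42 CPM.

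The genes of the cleaving embryo differed in level. Of the 32 that rose in Dux-Het, 16 had 0 counts in both Dux-KO 4OHT libraries and 27 had at most 3, and 1, Zfp750, was called higher in Dux-KO too. Zscan4c was at 0 in all 4 Dux-KO libraries, so its level under 4OHT was at least 738-fold higher in Dux-Het than in Dux-KO, counting 3 counts over the Dux-KO pair as the floor. For such genes the fitted difference between effects depends on the prior count and is not given. Duxf3 stayed at 0.0199 and 0.0902 CPM under 4OHT in Dux-KO, where 6 counts stood over each pair of libraries, and MERVL-int was at 240 and 302 CPM under DMSO and 331 and 326 CPM under 4OHT. Sp110 was at 1.38 and 1.30 against 1.75 and 1.41 CPM there.

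The test of the difference itself called nothing. Of 29322 entries edgeR called 0 (0%) for the Dux-Het effect minus the Dux-KO effect, and its smallest adjusted p was 0.99991. Entries at an unadjusted p under 0.05 numbered 481, a smaller share than the 0.05 that chance alone would give. DESeq2 called 2, MERVL-int and Gm8994. The MERVL-int difference was 1.22 (SE 0.223, unadjusted p = 0.000183), higher under 4OHT than under DMSO in both Dux-Het libraries. Gm8994, a predicted gene named because DESeq2 called it, went from 0.479 and 0.788 to 11.1 and 6.53 CPM in Dux-Het and was at 0.276 and 0.127 against 0.0795 and 0.0722 CPM in Dux-KO (5.06, SE 0.789). Sp110 differed by 1.96 (SE 0.534) and Duxf3 by 3.94 (SE 1.15). Both were past an unadjusted p of 0.05, but no entry of this edgeR test had an adjusted p below 0.9999.

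**Figure D3:**
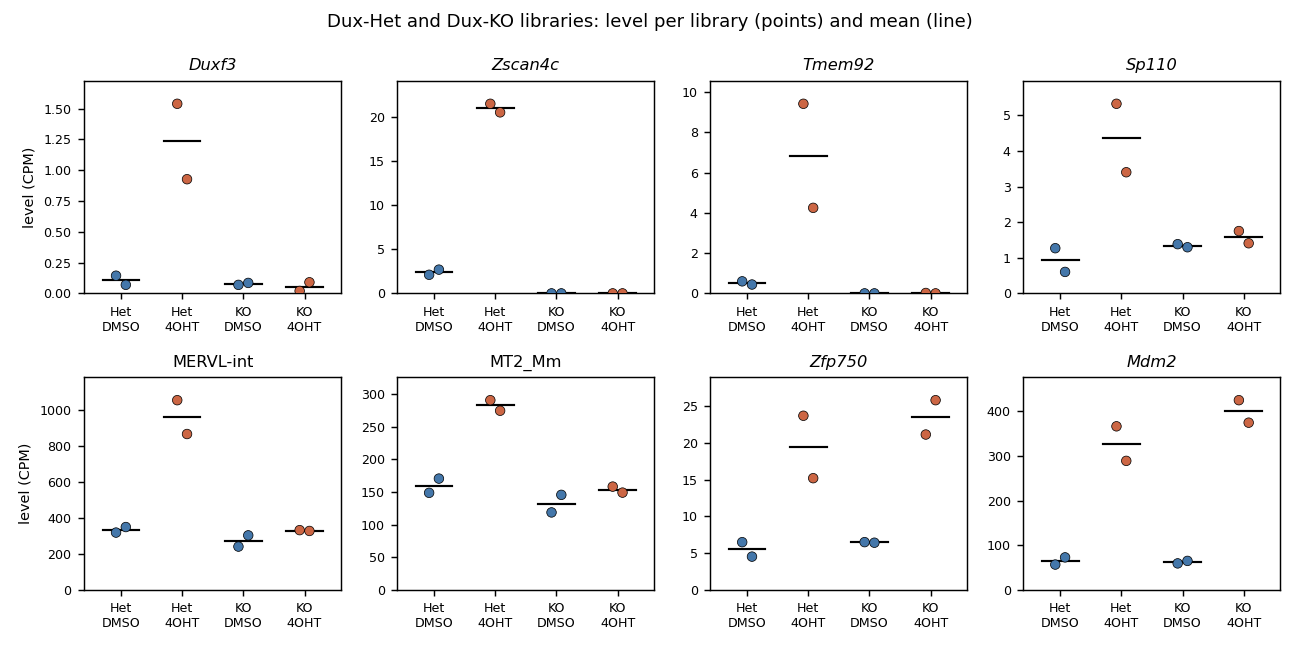
Level in CPM of 6 genes and 2 repeat families in the Dux-Het and Dux-KO libraries under DMSO or 4OHT, each panel from 0, with a point per library and a line at the mean. Duxf3, Zscan4c, Tmem92, Sp110, MERVL-int and MT2_Mm stand apart in the Dux-Het 4OHT libraries, while Zfp750 and Mdm2 are higher under 4OHT in both genotypes.

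The main set gave the same treatment in Ythdc1 cKO cells with no Dux label in 4 against 4 libraries. There 5783 of 24385 entries were higher (23.7%) and 5225 lower (21.4%) with 4 libraries a group. Of the Dux-Het calls, 1260 higher entries (86.1%, and 21.8% of the main set's) and 1117 lower entries (87.7% and 21.4%) carried the same call there, and 5 and 3 the opposite one. Of the 32 genes of the cleaving embryo that rose in Dux-Het, 31 also rose in the main set. The log2 fold changes correlated across 24138 entries with a Pearson r of 0.729, again over genes.

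The effect in Dux-Het differed from that in the main set for 8 of 31020 entries (0.0258%), with 2988 at an unadjusted p under 0.05. The immediate early genes led. Fosb was at 154 ± 17.4 CPM under DMSO and 65.9 ± 16.1 CPM under 4OHT in the main set (SD, n = 4), so that the gene fell there and rose in Dux-Het, a difference of 6.11 (SE 0.348, adjusted p = 3.1e-09). Fos fell there from 79.4 ± 13.0 to 28.7 ± 6.72 CPM, a difference of 4.30 (SE 0.346, adjusted p = 9.58e-07). In both genes the 2 sets differ most under DMSO, where the Dux-Het libraries hold 0.742 and 0.695 CPM of Fosb and the main set's 136 to 174. Dux-KO libraries and the pair with no Dux label were low under DMSO too, the latter at 2.32 CPM of Fosb. The Dux genotype and the separate set cannot be told apart in this comparison.

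The other 6 differences were smaller in most cases. The precursor gene Mir291a, of a microRNA cluster specific to ESCs, rose in Dux-Het from 3.09 and 1.97 to 10.6 and 7.44 CPM and was at 3.73 ± 1.07 and 3.03 ± 0.391 CPM in the main set (difference 2.11, adjusted p = 0.0396). Zfp773 was at 2.75 and 2.13 against 4.21 and 3.48 CPM in Dux-Het and fell in the main set (1.72, adjusted p = 0.0282). Noct, a circadian phosphatase gene, and Plaur, the urokinase receptor gene, rose in the main set, Plaur from between 15.02 and 19.73 CPM to between 71.7 and 102 CPM. In Dux-Het Noct was at 35.2 and 46.1 against 28.5 and 37.4 CPM. Plaur was at 10.6 and 9.08 against 9.49 and 17.99 CPM there. Their differences were -1.24 (adjusted p = 0.0201) and -1.84 (0.0232). For Plaur the Dux-Het value turned to -0.042 without 4OHT replicate 2.

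The last pair are predicted genes whose reads are uncertain. Gm10222, a pseudogene, was at 131 ± 11.1 CPM under DMSO in the main set and at 1.68 and 1.30 CPM in Dux-Het (difference -1.70, adjusted p = 0.0282). Under 4OHT the main set stood between 133 and 183 CPM. In Dux-Het the gene was called lower (adjusted p = 0.0384), a call lost in every fit that left out 1 Dux-Het library. Gm10715 was near 0 under DMSO in the main set and at 0.191 and 0.834 CPM in Dux-Het (difference -5.63, adjusted p = 0.0396). It was between 1.29 and 1.75 CPM under 4OHT in the main set, and its change in Dux-Het did not pass (adjusted p = 0.0605). The count of differences moved with the libraries, and so did the calls of the 8 genes. With only the libraries compared, 2 of the 8 were called. Some of the 8 were also lost when 1 Dux-Het library was left out. Most entries in the totals that follow are not among the 8. Higher and lower entries numbered 28 and 43 without Dux-Het DMSO replicate 1, 9 and 11 without DMSO replicate 2, 57 and 76 without 4OHT replicate 2, and 8 and 4 without 4OHT replicate 1.

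**Figure D4:**
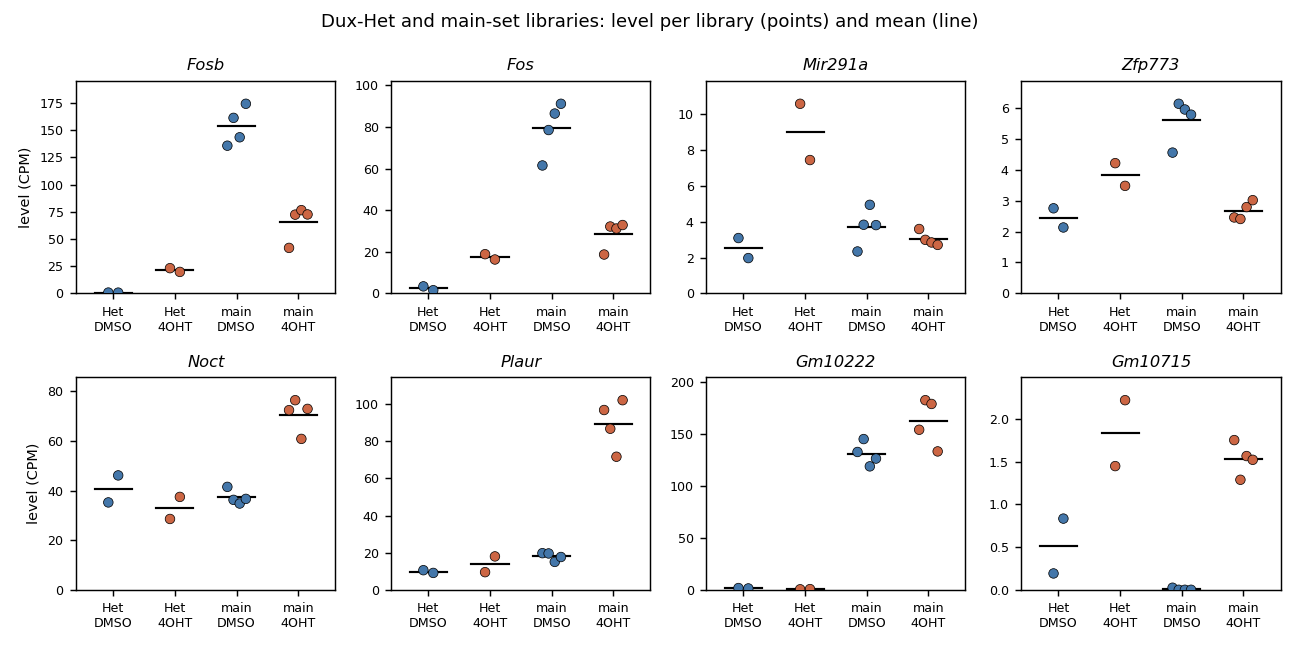
Level in CPM of the 8 genes whose effect differed, in the Dux-Het (2 a group) and main-set (4 a group) libraries under DMSO or 4OHT, each panel from 0, with a point per library and a line at the mean. Fosb and Fos are high under DMSO in the main set and near 0 under DMSO in Dux-Het, and their means move in opposite directions under 4OHT.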

How the data were processed

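Libraries were made from total RNA after ribosomal RNA removal, per the labels' protocols. Of tools and builds, bcl2fastq, STAR 2.7, Bowtie2, RSEM and mm10 stand in the submitters' processing notes. No source used here gives the counting tool, annotation, strand setting or treatment of multiply mapped reads. The authors deposited whole-number counts for 44749 entries in 22 libraries, namely 43672 genes found by symbol in GENCODE vM21 and 1077 repeat families. A normalized signal table was deposited too, in which each of 34971 complete lines is the count over 1 factor per library (largest relative deviation 5.44e-15). That table ends in the middle of a line as held and served only for an alternative scaling.

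Counts were tested with edgeR 4.0.16 in R 4.3.3 (filterByExpr, TMM, glmQLFit, glmQLFTest) over the 10 Dux libraries as 6 group means, or 18 libraries and 8 means against the main set. The threshold was 0.05 on Benjamini-Hochberg adjusted p. An SE is the size of the log2 fold change divided by the root of its F statistic. Levels are CPM with 1 TMM scaling over all 22 libraries. The script was tested on simulated data. Replicate libraries differed beyond counting noise (chi-square per degree of freedom 46.4 under DMSO and 30.4 under 4OHT), so none was merged. Floors are 3 counts over a group, intervals are at 95%, and both cover counting error only. DESeq2 1.42.0 and other settings were alternatives.

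The libraries, the 23 gene lists and the tests were chosen with earlier results of these data known. Named genes are Ythdc1, Mettl3 and Duxf3, the 8 largest rises and falls among called genes with at least 1 CPM and groups that do not overlap, up to 4 per list by p with any called against the list, fixed examples, the leading differences between sets, and up to 3 called repeat families of at least 10 CPM each way. Others named were chosen after their values were seen. Some genes that the rule names are not reported here.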

Additional observations from a re-analysis of the deposited data

Results flagged for a closer look

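8 genes changed differently under 4OHT in Dux-Het and in the main set by edgeR's test of the difference itself. On the log2 scale the Dux-Het effect minus the main-set effect was 6.11 for Fosb, 4.30 for Fos, 2.11 for Mir291a, 1.72 for Zfp773, -1.24 for Noct, -1.70 for Gm10222, -1.84 for Plaur and -5.63 for Gm10715. Among these genes, single libraries of the main set stood apart from the other 3 of their group. For Fos 1 library under 4OHT was at 18.7 CPM, for Fosb 1 library under 4OHT was at 41.8 CPM, and for Gm10715 1 DMSO library was at 0.0241 CPM with the others at 0. The Fos and Fosb values come from the same library, main-set 4OHT replicate 1, and chance alone sets a library apart in this way in about 1 in 20 groups.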

How the results depend on the processing

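None of the 2738 Dux-Het calls changed sign under another tool, scaling or set of entries, but their number moved. Without a filter on low counts 2423 entries were higher. With only the 4 Dux-Het libraries 591 were higher and 441 lower, and the lists gave 11 lower for glycolysis, 3 higher for immediate early genes and 10 lower for the cell cycle. Leaving out 1 Dux-Het library gave 824 to 1065 higher and 430 to 1028 lower entries, 13 to 21 lower glycolysis genes and 8 to 13 lower cell cycle genes. The replicate block gave 3124 higher and 2974 lower entries. Libraries of the same number deviated together (correlation 0.541 in Dux-Het, 0.237 in Dux-KO, over 12690 entries), but there are only 2 pairs a genotype and nothing says what a number marks, so the samples share only a number.

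The Dux-Het minus Dux-KO effect had 2 higher entries with DESeq2, 21 higher and 7 lower without a filter, 3 and 2 with the replicate block, and 0 to 1 lower when 1 library was left out (Rprl2, without Dux-KO 4OHT replicate 1). The Dux-Het minus main-set effect had 113 higher and 124 lower with DESeq2, 255 and 279 without a filter, 2 and 0 with only the libraries compared, 10 and 7 with gene entries alone, 103 and 128 with the replicate block, and 8 to 57 and 4 to 76 when 1 Dux-Het library was left out. The cause of these moves was not tested beyond the smaller or larger number of libraries or entries in a fit. Of the genes that the naming rule picks, log2 values that turned sign when 1 Dux-Het library was left out ran from -0.54 to 0.030 for Ythdc1 and -0.22 to 0.038 for Sox2 (highest without DMSO replicate 2), from -0.029 to 0.22 for Mettl3 (lowest without DMSO replicate 1), and from -0.45 to 3.36 for Nav3, -0.29 to 0.93 for Tagln and -0.042 to 0.89 for Plaur (lowest without 4OHT replicate 2). Of other entries named, none of which passed, Nelfa, L1Md_T, Setdb1, Mki67, Dusp6, Spry4, P4ha2, Rprl2 and ERVB4_1B-I_MM-int turned sign too.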

Other observations

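2 entries set the Dux-KO libraries apart from each other, and both were chosen after their values were seen. Rprl2, a ribozyme RNA gene, was at 221 and 126 CPM under DMSO and 189 and 127 CPM under 4OHT in Dux-Het, and at 0.8289 and 0.956 CPM under DMSO and 0.656 and 141 CPM under 4OHT in Dux-KO. The endogenous retrovirus family ERVB4_1B-I_MM-int was at 133 and 97.7 against 129 and 109.97 CPM in Dux-Het and at 17.0 and 24.4 against 34.0 and 107 CPM in Dux-KO. In both entries Dux-KO 4OHT replicate 2 lay at the level of the Dux-Het libraries, while Zscan4c was at 0 in that library.

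P4ha2, a collagen prolyl hydroxylase gene, was at 19.9 and 10.5 against 23.2 and 13.0 CPM in Dux-Het and at 22.6 and 19.3 against 10.7 and 9.24 CPM in Dux-KO. The difference of 1.31 (SE 0.441, unadjusted p = 0.0128) passed the adjusted threshold only in the fit with the replicate block.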
